A study of Mus musculus with 16 samples.

Results

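Guanylate-binding proteins are large GTPases that interferons induce, and 8 of their mouse genes, Gbp2, Gbp3, Gbp4, Gbp5, Gbp6, Gbp7, Gbp8 and Gbp9, were followed here through a monocyte activation experiment. They were chosen by symbol, and all 8 were among the 13085 genes in the table of expression values. The study asked how deletion of NFAM1, a transmembrane receptor with an ITAM signalling motif, alters activation of monocytes from C57BL/6 mice. Monocytes of NFAM1+/+ and NFAM1-/- mice were left unstimulated or received IFN-γ plus MegaCD40L, a multimeric CD40 ligand, at 1 µg/mL. RNA was taken after 6 h or 24 h. At 6 h there were 2 libraries for each genotype and stimulus, 8 in all. At 24 h there were 8 more, 4 unstimulated and 4 stimulated. The knockout was a germline deletion of exons 2 and 3, so every cell of an NFAM1-/- mouse carried it and no Cre driver was involved. The labels and the study's methods gave different IFN-γ concentrations and different cell sources (peripheral blood and bone marrow). The age of the donor mice was not given in the sources used here.

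The family works as follows, as background. IFN-γ binds its receptor, JAK-STAT signalling acts on gamma-activated sites (GAS) in promoters, and newly made IRF1 then binds interferon-stimulated response elements (ISRE). Guanylate-binding proteins hydrolyse GTP, assemble into coats on bacteria and on the vacuoles of intracellular parasites, and release lipopolysaccharide and DNA to caspase-11 and AIM2. In macrophages they act together with the immunity-related GTPases, and mice that lack the chromosome 3 cluster are highly sensitive to Toxoplasma.

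In the GENCODE vM21 gene models the family lay in clusters on chromosomes 3 and 5. Gbp5, Gbp7, Gbp3 and Gbp2 stood in that order on the plus strand of chromosome 3, with Gbp2b between the last pair. Gbp8, Gbp9, Gbp4 and Gbp6 stood in that order on the minus strand of chromosome 5, with Gbp10 between the last pair. The RefSeq promoter table (GRCm38.p6) held entries for 4 of the 8 genes, Gbp2, Gbp3, Gbp5 and Gbp7, and not for Gbp4, Gbp6, Gbp8 and Gbp9. The 250 bases before the start of each of those 4 genes are shown because IFN-γ signalling acts through such elements and all 4 genes rose with the stimulus. Capitals mark matches to GAS (TTCNNNGAA, which reads alike on both strands), to ISRE (GAAANNGAAA) or to the NF-kB consensus, each searched on both strands. All 4 lay on the plus strand, Gbp5 at chr3:142496684-142496933, Gbp7 at chr3:142530086-142530335, Gbp3 at chr3:142559794-142560043 and Gbp2 at chr3:142620413-142620662, each printed 5′ to 3′.
Gbp5: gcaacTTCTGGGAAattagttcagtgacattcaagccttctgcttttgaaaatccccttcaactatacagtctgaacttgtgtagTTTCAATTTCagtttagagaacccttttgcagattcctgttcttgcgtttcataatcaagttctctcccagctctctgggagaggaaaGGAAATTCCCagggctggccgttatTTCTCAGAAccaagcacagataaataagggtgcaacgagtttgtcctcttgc
Gbp7: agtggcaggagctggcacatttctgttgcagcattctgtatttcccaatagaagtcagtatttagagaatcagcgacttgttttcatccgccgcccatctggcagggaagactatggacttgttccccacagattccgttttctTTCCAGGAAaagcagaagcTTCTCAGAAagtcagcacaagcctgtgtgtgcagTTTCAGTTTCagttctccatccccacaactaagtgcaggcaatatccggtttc
Gbp3: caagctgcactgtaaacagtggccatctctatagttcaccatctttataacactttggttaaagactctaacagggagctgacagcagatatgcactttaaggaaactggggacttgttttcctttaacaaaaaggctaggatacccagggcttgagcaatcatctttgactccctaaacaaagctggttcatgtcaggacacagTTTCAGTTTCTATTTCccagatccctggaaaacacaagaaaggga
Gbp2: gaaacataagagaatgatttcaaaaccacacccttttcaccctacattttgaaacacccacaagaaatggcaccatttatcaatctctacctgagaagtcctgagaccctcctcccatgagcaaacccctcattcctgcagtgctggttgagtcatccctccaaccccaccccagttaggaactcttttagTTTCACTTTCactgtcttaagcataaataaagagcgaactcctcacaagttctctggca

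Each of the 4 windows held an ISRE match, all on the strand opposite to the gene, against 2.98% of the 32851 promoter windows of the table. Counted back from the base before the start, which is -1, the ISRE of Gbp2 began at -59, that of Gbp7 at -53 and that of Gbp5 at -165. Gbp3 had a pair of ISRE matches that overlap, at -45 and -39. Gbp5 and Gbp7 each also held 2 GAS matches, at -245 and -52 in Gbp5 and at -106 and -87 in Gbp7, whereas 7.02% of all windows held at least 1. The window of Gbp5 was the only one of the 4 with a match to the NF-kB consensus, at -77 on the opposite strand, and 3.9% of all windows held one. The table listed another start for Gbp3, whose window held none of the 3 motifs. These are matches of letters, not measured binding.

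The libraries held 48295939 to 88514341 reads on the listed genes. Values are CPM, read counts relative to a scaled library size. Summed over all genes, the reads of a library came to 0.756 to 0.788 of that size without stimulus, to 1.24 to 1.32 of it in the stimulated 6 h libraries and to 0.970 to 0.997 in the stimulated 24 h libraries. Differences between groups were therefore also computed on other scalings. All 11 monocyte markers of a fixed list were present, led by Lyz2. So were all 13 neutrophil markers, all 8 dendritic cell markers and 6 of 7 erythroid and megakaryocyte markers. Of the other lists, 7 of 9 T cell, 6 of 7 NK cell and 4 of 9 B cell markers were not in the table. Cd3e, Ncr1 and Ms4a1 were among those missing. Presence in the table alone does not show which cells the reads came from. Nfam1 itself, read over the whole gene, was at 408.3 and 431.9 CPM in NFAM1+/+ and at 299.2 and 321.4 CPM in NFAM1-/- unstimulated libraries at 6 h, and at 129.2 to 133.4 and 126.6 to 134.6 CPM in stimulated ones. Reads outside exons 2 and 3 still count there, so this level does not check the deletion. The title and the genotype tag of 4 of the 24 h libraries (44, 46, 56 and 58) named different genotypes, so those libraries enter tests of stimulus and time only. At 24 h Nfam1 was at 391.2 to 494.6 CPM unstimulated and at 200.9 to 270.9 CPM stimulated. No label tied a library to an animal, so the p-values measure the spread between these libraries, which may be technical.

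The 8 genes were low before stimulation and took a sizeable share of all reads after IFN-γ and CD40L. In the 4 unstimulated libraries at 6 h their summed level was 54.3, 44.8, 44.0 and 33.2 CPM (libraries 1, 2, 3 and 4). In the 4 stimulated libraries at 6 h it was 34250, 34844, 36456 and 37394 CPM (libraries 26, 10, 11 and 12). The 8 genes thus took 0.00439% to 0.00706% of all reads without stimulus and 2.60% to 2.96% with it. At 24 h the sum was 75.3, 87.5, 60.0 and 82.7 CPM unstimulated (libraries 43, 44, 45 and 46) and 13591, 13686, 13793 and 13652 CPM stimulated (libraries 55, 56, 57 and 58), the latter 1.37% to 1.41% of reads. Stimulated and unstimulated libraries were far apart at both times, and the 2 stimulated groups did not overlap either. In bulk RNA, fewer cells that respond and less RNA per cell cannot be told apart.

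**Figure D1:**
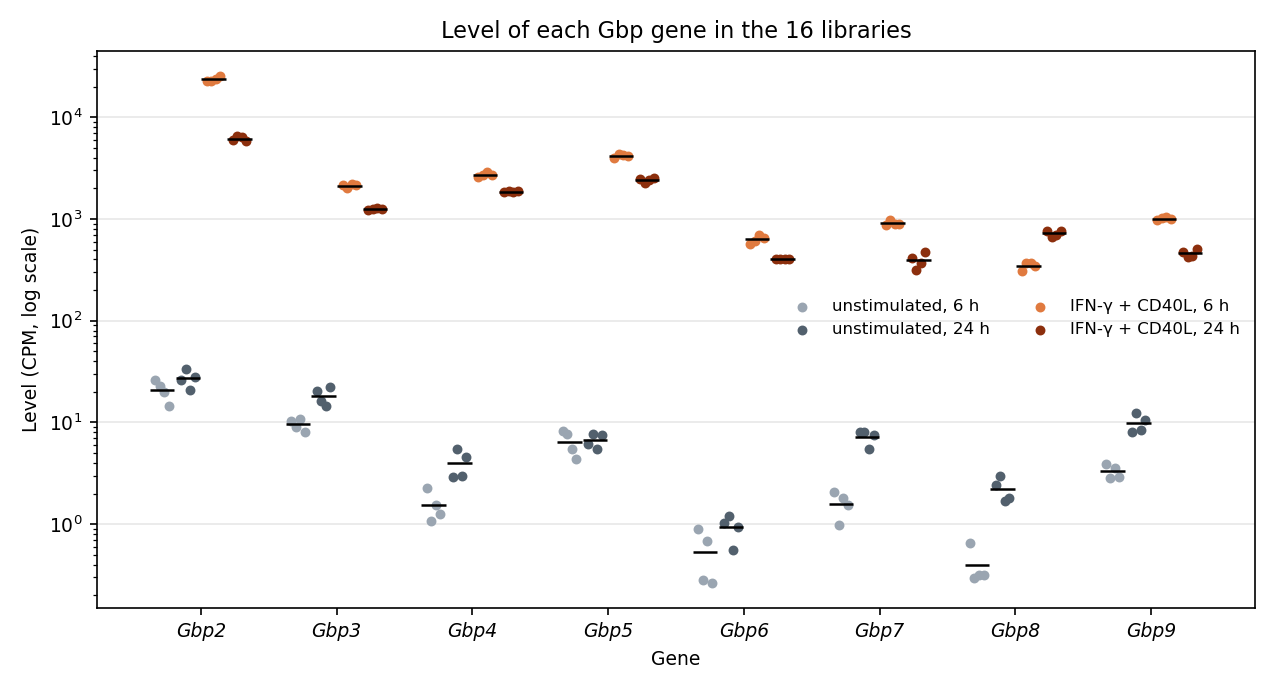
Level of each Gbp gene in CPM (log scale) in the 16 libraries, with 1 point per library, a bar at the group mean and 4 libraries per group. Every stimulated library lies above every unstimulated one for all 8 genes, and Gbp8 is the gene whose stimulated level is higher at 24 h than at 6 h.

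Levels of different genes were compared per kilobase of exon, since a longer transcript yields more reads. Gbp2, a prenylated member that coats parasite vacuoles, stood highest in every group. In stimulated libraries at 6 h Gbp2 was at 9449 ± 502 CPM per kb (SD, n = 4), 14.5 times the level of Gbp3, the gene below it, at 652.5 ± 21.9. Gbp5, a prenylated member with a role in inflammasome assembly, was at 634.2 ± 21.3 CPM per kb and its libraries overlapped those of Gbp3. Gbp4 followed at 363.9 ± 19.3, then Gbp9 at 195.1 ± 5.28, Gbp7 at 161.8 ± 7.92, Gbp6 at 106.1 ± 9.62 and Gbp8 at 100.7 ± 7.92. In that order only Gbp3 and Gbp5, and Gbp6 and Gbp8, overlapped as neighbours. Measured per kilobase of the longest coding transcript, Gbp5 (1378) stood above Gbp3 (794.3) and Gbp6 (242.7) above Gbp9 and Gbp7, and Gbp2 was at 6.86 times Gbp5, so those orders and the lead of Gbp2 depend on the length used.

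The order was not the same at 24 h. With stimulus Gbp2 was again first at 2448 ± 124 CPM per kb, now 6.36 times Gbp3 (384.7 ± 6.63), and Gbp5 at 364.8 ± 18.5 overlapped Gbp3. Gbp4 was at 248.6 ± 3.04 and Gbp8 at 210.0 ± 15.1, so Gbp8, last of the 8 at 6 h, stood above 3 of the others at 24 h. Gbp9 (88.9 ± 7.67), Gbp7 (70.2 ± 11.9) and Gbp6 (68.0 ± 0.548) came last, each overlapping its neighbour. By the longest transcript the gene after Gbp2 was again Gbp5 (792.6), with Gbp2 at 3.09 times its level, and Gbp6 (155.4) stood above Gbp9 (105.0) and Gbp7 (70.2). Without stimulus Gbp2 led at both times, at 8.22 ± 1.93 CPM per kb at 6 h and 10.77 ± 2.03 at 24 h, followed by Gbp3 at 2.94 ± 0.391 and 5.61 ± 1.08, and Gbp6 was lowest at 0.0894 ± 0.0523 and 0.156 ± 0.046. By the longest transcript Gbp8, at 0.161 CPM per kb, was the lowest of the unstimulated genes at 6 h, and Gbp6 was at 0.204.

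At 6 h all 8 genes rose, by 7.80 to 10.85 on the log2 scale. In the fit across 12306 genes, 18.9% were called higher, which required a 2-fold difference or more and a limma adjusted p under 0.05. Higher genes made up 48.2% of all calls, and 21.7% once libraries were divided by their own read totals, a scaling under which the 8 genes rose by 7.07 to 10.12. The median log2 fold change was 9.62 over the 8 genes and -0.13 over all genes. Gbp6 reached 1 CPM in no unstimulated library at 6 h and in only 2 at 24 h, so it could pass the filter on low values only through stimulated libraries, and its difference was built into passing. All 8 were also called when no filter was used.

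On chromosome 3, Gbp2 was at 25.9, 22.6, 19.7 and 14.5 CPM in the unstimulated libraries 1 to 4 and at 22790, 22797, 24061 and 25443 CPM in the stimulated libraries 26, 10, 11 and 12. The groups did not overlap, and the log2 fold change was 10.20 ± 0.14 (SE), or 1174-fold (limma adjusted p = 4.66e-19). Only 0.244% of all genes rose more. Gbp5 was at 8.31, 7.71, 5.45 and 4.38 CPM without stimulus and at 4020.9, 4345.8, 4283.2 and 4186.0 CPM with it, a log2 fold change of 9.39 ± 0.15. Gbp7, which has been linked to the phagocyte oxidase, was at 2.07, 0.970, 1.79 and 1.53 CPM without stimulus and at 876.8, 974.0, 897.2 and 886.0 CPM with it, a log2 fold change of 9.21 ± 0.18. Gbp3, seen on parasite vacuoles, had the highest unstimulated level after Gbp2, 8.09 to 10.93 CPM, and the smallest rise of the 8, to 2025.8 to 2185.7 CPM (log2 fold change 7.80 ± 0.11).

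On chromosome 5, Gbp4 rose most of the 8. It was at 2.25, 1.08, 1.55 and 1.25 CPM without stimulus and at 2562.0, 2708.4, 2915.3 and 2723.9 CPM with it, a log2 fold change of 10.85 ± 0.20 or 1847-fold. Only 0.122% of all genes had a larger rise. Gbp6 went from 0.267 to 0.899 CPM to 565.5 to 702.0 CPM (10.41 ± 0.31), and Gbp8 from 0.297 to 0.651 CPM to 308.3 to 366.4 CPM (9.85 ± 0.21). Gbp9, also seen on parasite vacuoles, went from 2.85 to 3.86 CPM to 980.3 to 1045.0 CPM (8.27 ± 0.12). The unstimulated levels of Gbp6 and Gbp8 rested on 17 to 101 and 18 to 73 reads per library, which makes their folds the least precise.

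At 24 h all 8 genes were again called higher, by 5.56 to 8.93 on the log2 scale, where 14.6% of all genes were. The median was 8.11 over the 8 genes and 0.02 over all genes. Gbp4 had the largest fold change, 8.93 ± 0.20, from 2.91, 5.46, 2.95 and 4.54 CPM (libraries 43 to 46) to 1857.8, 1870.1, 1834.8 and 1889.2 CPM (libraries 55 to 58). Gbp6 (8.82 ± 0.31), Gbp5 (8.51 ± 0.15), Gbp8 (8.38 ± 0.21) and Gbp2 (7.85 ± 0.14) followed. Gbp3 (6.12 ± 0.11), Gbp7 (5.76 ± 0.18) and Gbp9 (5.56 ± 0.12) changed least, and yet only 1.41% of all genes rose more than Gbp9.

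**Figure D2:**
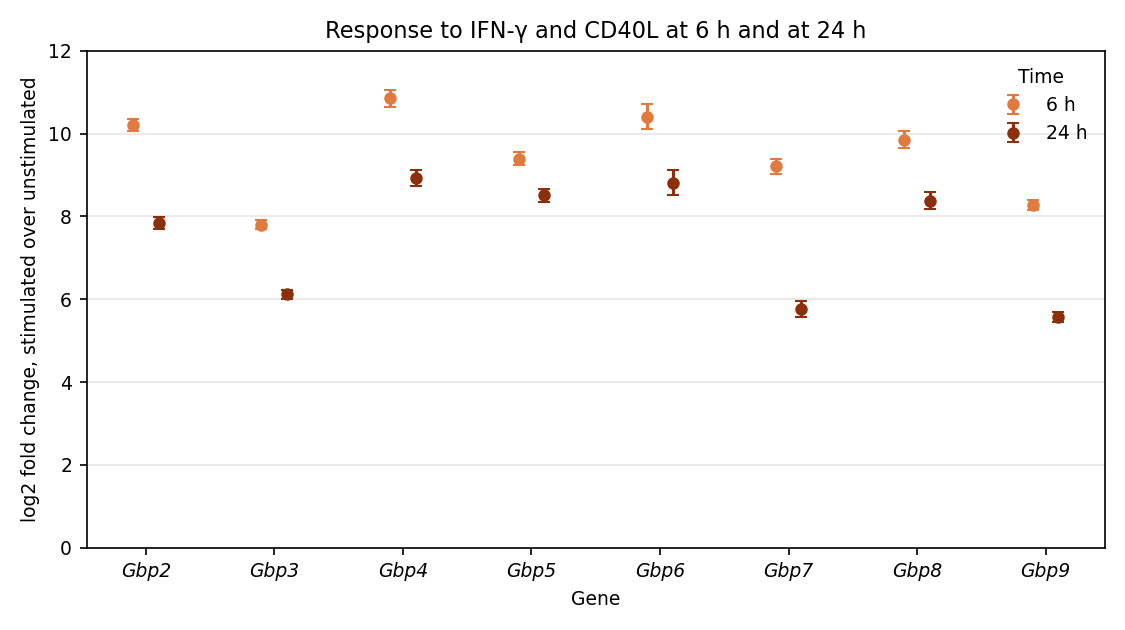
log2 fold change of stimulated over unstimulated libraries for each Gbp gene at 6 h and at 24 h, with bars of 1 standard error from limma and 4 libraries per group. Each gene's 24 h value is below its 6 h value, by 3.45 for Gbp7 and by 0.89 for Gbp5.

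The response was smaller at 24 h than at 6 h for 7 of the 8 genes, in a test of the difference itself that called 18.1% of all genes lower. Gbp7 differed most, its log2 response falling by 3.45 ± 0.26 (limma adjusted p = 7.29e-09), followed by Gbp9 at -2.71 ± 0.17, Gbp2 at -2.35 ± 0.20 and Gbp4 at -1.92 ± 0.28. Gbp3 (-1.68 ± 0.15), Gbp6 (-1.59 ± 0.44) and Gbp8 (-1.47 ± 0.29) came next. Gbp5 was the exception, at -0.89 ± 0.22 with an adjusted p of 0.00185 by limma but less than a 2-fold difference, and it was called when library 1 was left out (-1.02) or with libraries centred on their medians (-1.03). With quantile normalization Gbp6 (-0.78) and Gbp8 (-0.83) fell short of 2-fold as well, and without the 4 libraries whose genotype labels disagree Gbp6 was no longer called (-1.34, limma adjusted p = 0.063). The 6 h and 24 h libraries were separate sets, so time and library set cannot be told apart in any comparison of the times.

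Which side of the ratio moved differed by gene. In stimulated libraries, 3 genes were lower at 24 h than at 6 h, where 16.8% of all genes were called lower, and 1 was higher, where 16.3% were. Gbp2 fell by 1.95 ± 0.14 on the log2 scale to 5955.4, 6502.6, 6335.2 and 5839.4 CPM. Gbp7 fell by 1.22 ± 0.18 to 414.6, 317.7, 368.4 and 475.0 CPM, and Gbp9 fell by 1.14 ± 0.12 to 422.0 to 509.0 CPM. All libraries of these 3 genes at 24 h were below all those at 6 h. Gbp8 rose by 1.06 ± 0.21 (limma adjusted p = 0.000176), from 308.3, 366.4, 365.9 and 346.3 CPM at 6 h (libraries 26, 10, 11 and 12) to 760.7, 660.2, 700.9 and 770.9 CPM at 24 h (libraries 55 to 58). The lowest 24 h library of Gbp8 was above the highest 6 h library. The share of all genes whose times separated in this way was not counted. By limma, 9498 of 12306 genes had an unadjusted p under 0.05 in this comparison.

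The other 4 genes had log2 differences of less than 2-fold, -0.76 ± 0.11 for Gbp3, -0.80 ± 0.15 for Gbp5, -0.55 ± 0.20 for Gbp4 and -0.64 ± 0.31 for Gbp6. In CPM their 24 h libraries were also all below their 6 h libraries, for example Gbp5 at 2246.0 to 2523.3 against 4020.9 to 4345.8 CPM. That separation depends on the scaling. As a share of a library's own reads, Gbp4 was at 0.19471% in library 58 (24 h) and 0.19472% in library 26 (6 h). Gbp6 was at 0.0420% in library 55 (24 h) and 0.0430% in library 26. How many of all genes did the same was not counted. The calls of Gbp7 and Gbp9 depended on the scaling. Divided by the libraries' own read totals, Gbp7 was at -0.85 and Gbp9 at -0.76, whereas Gbp2 and Gbp8 were still called. Centred on library medians, Gbp8 was at 0.90 and short of 2-fold, and its direction was the same under all scalings tried.

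The make-up of the family does not depend on any scaling of the libraries, because it compares genes within a library. Gbp2 gave 65.4% to 68.0% of the reads of the 8 genes in stimulated libraries at 6 h and 42.8% to 47.5% at 24 h. Gbp8 gave 0.900% to 1.05% at 6 h and 4.82% to 5.65% at 24 h. Neither gene's ranges overlapped. Gbp5 went from 11.2% to 12.5% of these reads at 6 h to 16.4% to 18.5% at 24 h, and Gbp4 from 7.28% to 8.0% to 13.3% to 13.8%. A larger share is not a higher level, because a fall of Gbp2 raises the shares of the others. In mean CPM Gbp2 went from 23770 to 6158, Gbp5 from 4209 to 2421 and Gbp4 from 2727 to 1863. In unstimulated libraries Gbp3 held a larger place, 19.1% to 24.8% at 6 h and 18.6% to 27.0% at 24 h, against 5.79% to 6.27% and 9.09% to 9.31% with stimulus.

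**Figure D3:**
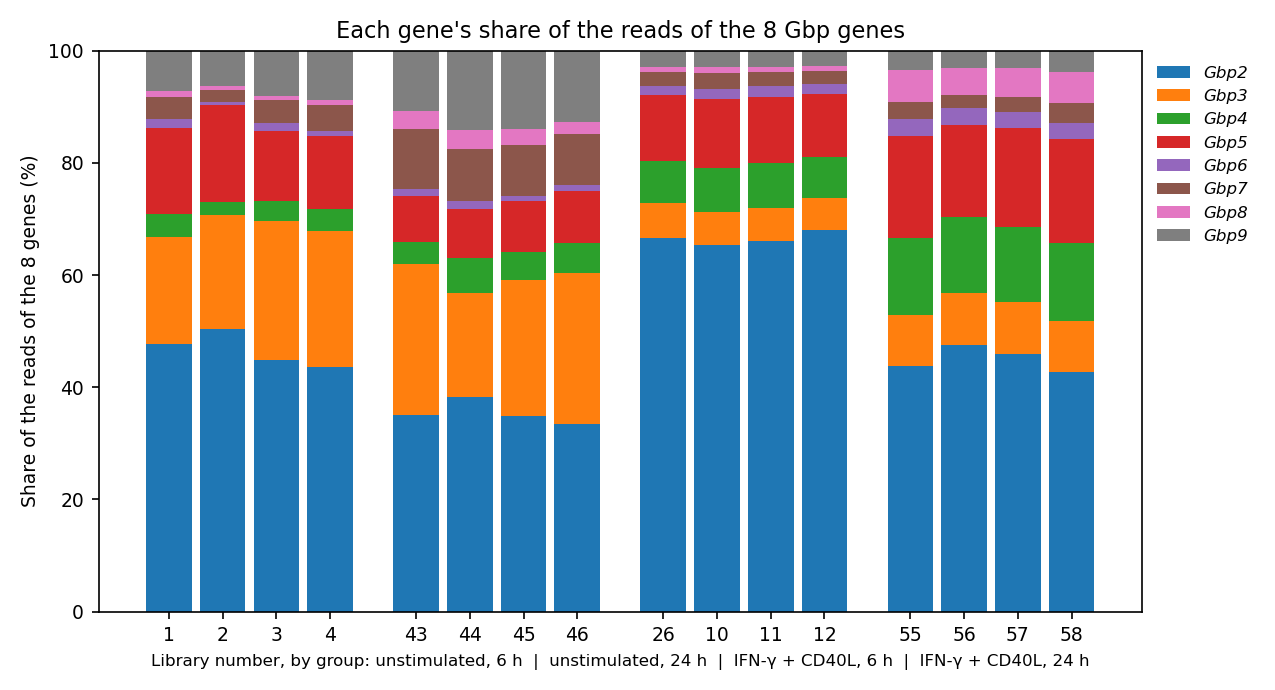
Share of the reads of the 8 Gbp genes (%) that each gene took in each of the 16 libraries, which are named by number and set in 4 groups of 4 by stimulus and time. The Gbp2 share is 65.4% to 68.0% in the stimulated libraries at 6 h and 42.8% to 47.5% in those at 24 h, where the Gbp8 share is 4.82% to 5.65%.

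Without stimulus, 4 of the 8 genes were higher at 24 h than at 6 h, where 12.8% of all genes were called higher. Gbp8 rose by 2.53 ± 0.21 on the log2 scale, from 0.651, 0.297, 0.318 and 0.319 CPM to 2.43, 2.94, 1.69 and 1.83 CPM. Gbp7 rose by 2.23 ± 0.18, to 8.0, 8.13, 5.47 and 7.47 CPM. All 24 h libraries of both genes were above all 6 h libraries, an arrangement that was not counted over all genes. By limma, 8134 of 12306 genes had an unadjusted p under 0.05 in this comparison. Gbp9 rose by 1.57 ± 0.12 to 8.10 to 12.4 CPM, and Gbp4 by 1.37 ± 0.20 to 2.91 to 5.46 CPM, although Gbp4 was at 0.99 and short of 2-fold without the 4 libraries whose genotype labels disagree. Gbp6 (0.95 ± 0.31), Gbp3 (0.92 ± 0.11) and Gbp2 (0.40 ± 0.14) had differences of less than 2-fold, and Gbp6 was called when any 1 of the libraries 1, 3 and 45 was left out (1.27, 1.14 and 1.18). Gbp3 was called without library 45 (1.03). Gbp5 was at 4.38 to 8.31 CPM at 6 h and 5.47 to 7.65 CPM at 24 h, a log2 difference of 0.09 ± 0.15.

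Other cells' markers moved with this comparison. Of 13 neutrophil markers, all in the table, 11 were called higher at 24 h without stimulus and their summed level was 1140 to 1700 CPM against 382.2 to 502.2 CPM at 6 h. Of 8 dendritic cell markers 5 were called higher, with sums of 236.1 to 342.4 against 99.1 to 123.3 CPM. The monocyte markers summed to 23920 to 26160 CPM at 6 h and 27650 to 31480 CPM at 24 h. The T cell list kept 2 genes in the table, with sums of 0.548 to 1.39 CPM at 6 h and 4.19 to 6.81 CPM at 24 h. The part of these cells in the higher Gbp levels was not tested. With stimulus the neutrophil markers summed to 337.1 to 608.4 CPM at 6 h and 365.0 to 447.9 CPM at 24 h. The monocyte markers summed to 8412 to 10380 and 8377 to 11600 CPM. Against no stimulus, 7 of the 11 monocyte markers were called lower and 2 higher at 6 h, and 9 lower and 1 higher at 24 h. The B cell list, led by Ighm, summed to 394.8 to 591.2 CPM at 6 h and 42.3 to 52.6 CPM at 24 h with stimulus. The dendritic cell list, led by Bst2, summed to 413.4 to 539.0 and 580.7 to 668.4 CPM. Bst2 alone was at 26.8 CPM without and 394.4 CPM with stimulus at 6 h, and at 561 CPM with stimulus at 24 h (group means). Between the stimulated times none of the 8 dendritic cell markers was called higher and 1 was called lower.

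The 2 genotypes were compared at 6 h, where the labels agree. With stimulus none of the 8 genes was called different between NFAM1-/- and NFAM1+/+ monocytes, and the log2 differences ran from -0.05 to 0.19, none with an unadjusted p under 0.05. Over all 12111 genes tested by limma, 0.0248% were called higher and 0.00826% lower in NFAM1-/- libraries, 4 genes in all, while 1522 had an unadjusted p under 0.05. Leaving out library 10 raised the 4 genes to 131, none of them among the 8. Gbp2 was at 22790 and 22797 CPM in NFAM1+/+ and at 24061 and 25443 CPM in NFAM1-/- libraries, a log2 difference of 0.12 with a 95% confidence interval of -0.18 to 0.42. For Gbp5 the difference was 0.02 (-0.21 to 0.25), for Gbp3 0.06 (-0.23 to 0.35) and for Gbp9 0.04 (-0.29 to 0.36). The intervals of Gbp4 (-0.51 to 0.70), Gbp7 (-0.67 to 0.57) and Gbp8 (-0.59 to 0.75) lay inside a 2-fold difference in either direction, and that of Gbp6 (-0.98 to 1.36) did not. In Gbp2, Gbp3, Gbp4 and Gbp6 both NFAM1-/- libraries were above both NFAM1+/+ libraries, an arrangement that 24% of all genes showed.

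Without stimulus none of the 8 genes was called at 2-fold, where 0.0413% of all genes were called higher in NFAM1-/- libraries and 0.0248% lower by limma, 8 genes in all with 1058 at an unadjusted p under 0.05. Leaving out library 2 gave 25 genes and leaving out library 4 gave 0, never including the 8 genes. Gbp5 was at 8.31 and 7.71 CPM in NFAM1+/+ and at 5.45 and 4.38 CPM in NFAM1-/- libraries, a log2 difference of -0.71 with a 95% confidence interval of -0.94 to -0.48 and an adjusted p of 0.0433 by limma. Gbp2 was at 25.9 and 22.6 against 19.7 and 14.5 CPM, a difference of -0.52 (-0.82 to -0.22) whose adjusted p was 0.247 by limma. In these 2 genes both NFAM1-/- libraries were below both NFAM1+/+ libraries, as in 20.4% of all genes. The other 6 genes had differences of -0.47 (Gbp8) to 0.23 (Gbp7), and the intervals of Gbp6 (-1.40 to 0.93) and Gbp8 (-1.14 to 0.21) reached past 2-fold. Library 1 was the highest of the 4 for Gbp2, Gbp4, Gbp5, Gbp6, Gbp7, Gbp8 and Gbp9, and without it the differences of Gbp3 (0.05), Gbp4 (0.37), Gbp6 (0.60), Gbp8 (0.10) and Gbp9 (0.18) were above 0 in place of below.

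**Figure D4:**
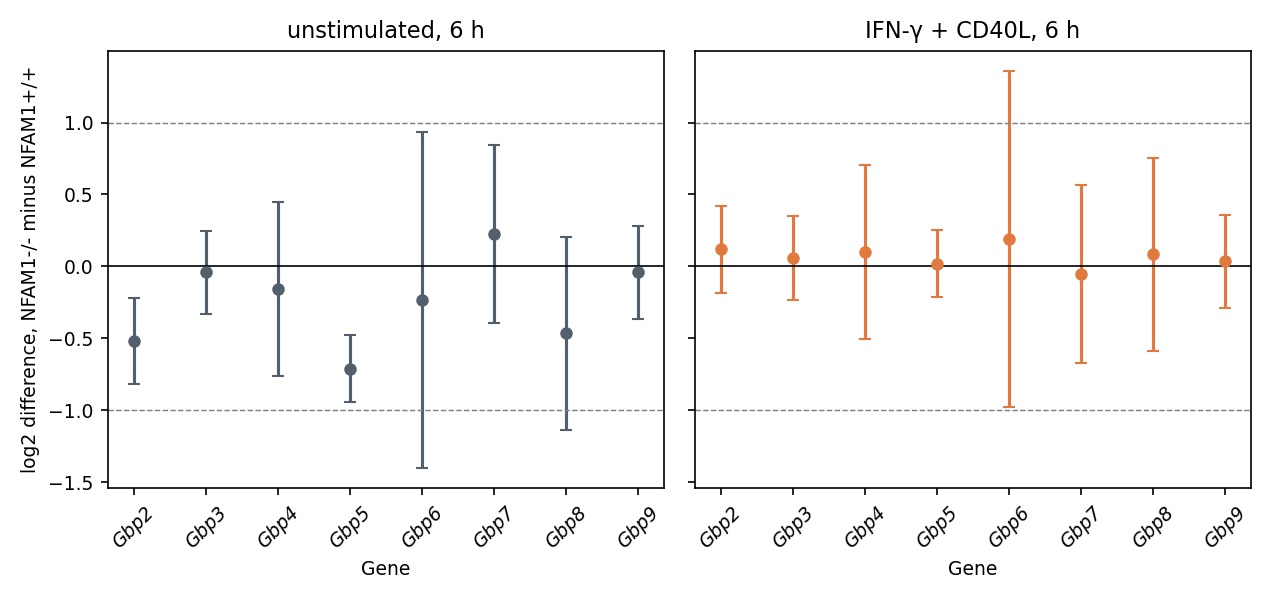
log2 difference of NFAM1-/- minus NFAM1+/+ monocytes at 6 h for each Gbp gene, unstimulated on the left and stimulated on the right, with bars of the 95% confidence interval from limma and 2 libraries per group. Dashed lines mark 2-fold. Without stimulus the intervals of Gbp5 (-0.94 to -0.48) and Gbp2 (-0.82 to -0.22) lie below 0.

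The test of whether the response to stimulus itself differed by genotype called none of the 8 genes and none of all 12111 genes (limma, smallest adjusted p = 0.209), with 846 genes at an unadjusted p under 0.05. Leaving out library 10, 69 genes were called, and none of them was among the 8. Gbp5 rose by 9.03 ± 0.10 in NFAM1+/+ and by 9.76 ± 0.10 in NFAM1-/- monocytes, a difference of 0.73 (95% confidence interval 0.40 to 1.06) with a limma adjusted p of 0.606. All 8 genes rose in either genotype, where 19.6% (NFAM1+/+) and 18.8% (NFAM1-/-) of all genes were called higher. Gbp6 and Gbp8 reached 1 CPM in no unstimulated library of 6 h. They passed the filter of this fit only through stimulated libraries, so their rise was built into passing. For Gbp2 the rise was 9.88 ± 0.13 and 10.52 ± 0.13, a difference of 0.64 (0.21 to 1.06). At 24 h only 1 library per genotype and stimulus had labels that agree, so no test was made. There the NFAM1-/- minus NFAM1+/+ differences of the 8 genes had a median of 0.02 with stimulus (-0.09 to 0.17) and of 0.41 without (-0.05 to 0.87).

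Of the other family genes, 3 were in the table, Gbp2b, Gbp10 and Gbp11. All 3 were called higher at both times, where 18.9% (6 h) and 14.6% (24 h) of all genes were. Their highest unstimulated values were 0.724, 0.262 and 0.270 CPM, so they passed the filter on low values only through stimulated libraries. Their rise was thus built into passing. Gbp2b, the gene between Gbp3 and Gbp2, was like Gbp8 in having a higher stimulated level at 24 h (158.1 to 197.4 CPM) than at 6 h (38.8 to 77.2 CPM), a log2 difference of 1.76 ± 0.35. Gbp10 was at 93.3 to 99.4 CPM at 6 h and 61.3 to 103.1 CPM at 24 h with stimulus. Gbp11, annotated as a polymorphic pseudogene, was at 74.9 to 113.7 and 51.4 to 80.6 CPM, and had no read in 2 of the unstimulated libraries. Reads can be hard to place in this family. Windows of 101 bases, the length of a read, were unique to the gene in 96.3% to 100% of the longest coding transcript of Gbp2, Gbp3, Gbp4, Gbp5, Gbp8 and Gbp9, in 89.8% for Gbp7 and in 17.2% for Gbp6. Gbp6 shared its windows with the gene model Gm43302 and with Gbp10, and 29.0% of its exon bases overlapped Gm43302, so its level is the least certain of the 8. Gbp4, Gbp8 and Gbp9 shared 60 or 61 exon bases with each other, and 11.3% of the exon bases of Gbp7 overlapped the model Gm43802. Of the windows of Gbp10, 29.3% were unique to it.

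The listed genes around the family were counted by their place in the pathway. Over all genes, 18.9% were called higher at 6 h and 14.6% at 24 h, and 2503 and 2237 of 12306 were called lower. Of 11 genes of the receptor and JAK-STAT step, 7 were called higher and 1 lower at 6 h, with a median log2 fold change of 2.02. The one that fell, named for that, was the receptor chain Ifngr1, by 2.38 ± 0.07 on the log2 scale (422.0 to 81.1 CPM in group means). Stat2, which type I interferon signalling activates, rose by 4.75 ± 0.09. Jak2 rose by 3.25 ± 0.09. At 24 h 7 were again called higher and 1 lower.

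All 8 interferon regulatory factors and transactivators were called higher at 6 h and at 24 h, with medians of 5.12 and 3.37. Irf1, which binds ISRE sequences, rose by 6.50 ± 0.07 at 6 h, from 41.6 to 3748 CPM, and was at 2820 CPM at 24 h. Irf8, a partner of IRF1 in macrophages, rose by 3.36 ± 0.06, and Nlrc5, the transactivator of MHC class I genes, by 6.39 ± 0.10. Irf7 rose by 6.05 ± 0.16. Of the type I interferon genes, Ifnb1 was at 0.0799 CPM without and 56.0 CPM with stimulus at 6 h, and at 1.63 CPM with stimulus at 24 h. Ifnar1 was at 372.6 and 213.8 CPM at 6 h.

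On the CD40 side, 6 of 10 genes were called higher at 6 h and 9 of 10 at 24 h, with medians of 1.19 and 2.12. Cd40 itself rose by 4.62 ± 0.11 at 6 h and by 5.27 ± 0.11 at 24 h. The response at 24 h was larger than at 6 h for 3 of these 10 genes (Nfkb2, Nfkbia and Relb, named after their values were seen) and smaller for 1, Nfkb1, which rose by 1.29 ± 0.08 at 6 h and was at -0.06 ± 0.08 at 24 h. Over all genes, 13.4% had a larger and 18.1% a smaller response at 24 h. None of the 8 Gbp genes had a larger one, which for 8 genes is near the share of all genes. IFN-γ and CD40 ligand were both given in every stimulated library analysed here, so their parts cannot be told apart.

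The immunity-related GTPases work beside the guanylate-binding proteins on vacuoles. Among the lists of genes outside the Gbp family, theirs was nearest in median response. All 11 in the table were called higher at both times, where 18.9% and 14.6% of all genes were. Their medians were 8.28 at 6 h and 6.48 at 24 h, and for all 11 the response was smaller at 24 h. Genes such as F830016B08Rik and Gm4951, named for that, passed the filter only through stimulated libraries, so their rise was built in. Their unstimulated means were 0.0689 and 0.177 CPM at 6 h and 0.191 and 0.639 CPM at 24 h. Iigp1 rose by 10.91 ± 0.21 at 6 h, from 1.45 to 2728 CPM, Igtp by 8.28 ± 0.13, Irgm1 by 6.10 ± 0.11 and Irgm2 by 6.48 ± 0.11. Of 10 other dynamin-like GTPases 4 were called higher at 6 h, among them the antiviral Mx1 at 7.58 ± 0.14, and 5 at 24 h. Dnm2, the endocytic dynamin, was at 0.15 ± 0.04.

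**Figure D5:**
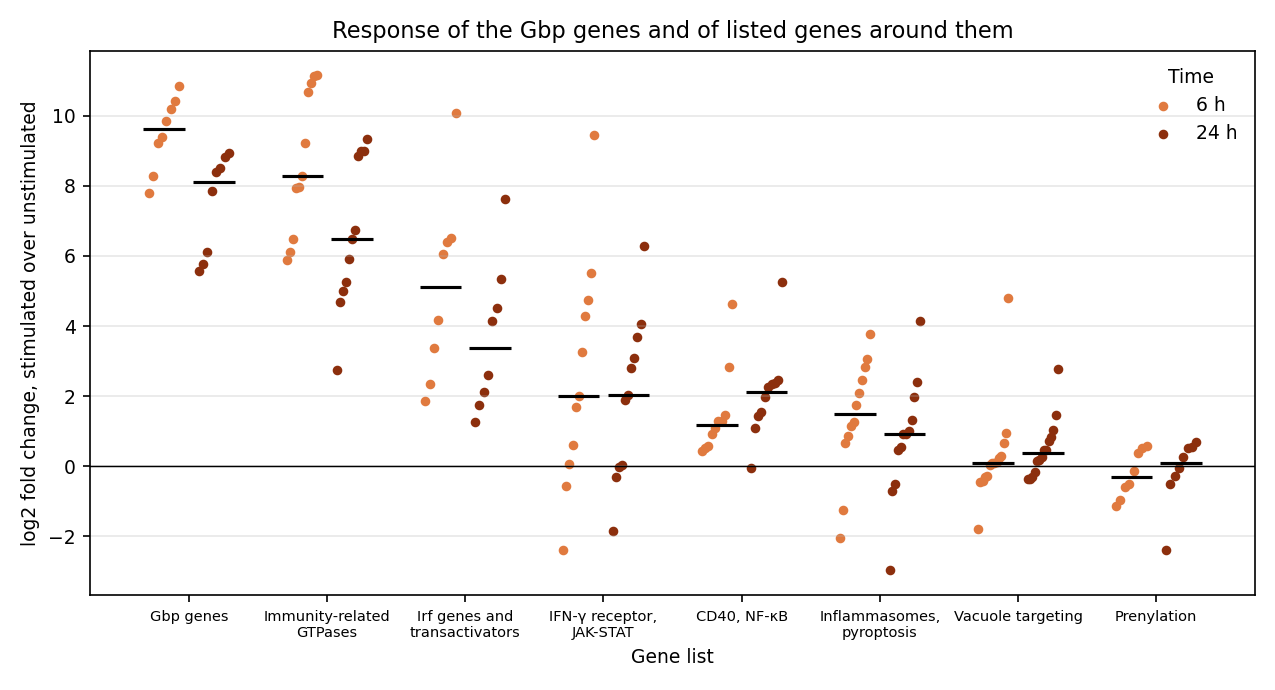
log2 fold change of stimulated over unstimulated monocytes at 6 h and at 24 h for the 8 Gbp genes and 7 lists of genes around them, with 1 point per gene and a bar at the list's median. The medians are 9.62 and 8.11 for the Gbp genes, 8.28 and 6.48 for the immunity-related GTPases and 5.12 and 3.37 for the Irf genes and transactivators.

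Among the inflammasome and pyroptosis genes, 8 of 12 were called higher and 2 lower at 6 h, and 5 and 1 at 24 h. The lower ones, named for that, were Il1b (-1.25) and Gsdme (-2.04) at 6 h and Gsdme (-2.96) at 24 h. Casp4, the caspase-11 that binds lipopolysaccharide, rose by 3.76 ± 0.08 at 6 h (45.1 to 607.2 CPM), Aim2, the DNA sensor, by 2.09 ± 0.11, and Gsdmd, the pore former, by 1.73 ± 0.05. Nlrp3 rose by 1.28 ± 0.13. Of the 14 vacuole-targeting genes, 1 was called higher and 1 lower at 6 h, and 3 and 0 at 24 h, where 18.9% and 14.6% of all genes were called higher. Those called at 6 h, named after their values were seen, were Trim21, an antibody receptor and ubiquitin ligase, at 4.79 and Gabarapl1 at -1.78. Sqstm1, a ubiquitin adaptor, was at 0.09 ± 0.17 at 6 h and rose by 1.46 ± 0.17 at 24 h. Of the 8 prenylation enzymes, which make, attach or process the lipid anchor that Gbp2 and Gbp5 carry, none was called higher and 1 lower at both times. Among all 12306 genes, 2503 were called lower at 6 h and 2237 at 24 h. The lower enzyme was Fdps, the farnesyl diphosphate synthase, at -1.12 and -2.39. Pggt1b, a geranylgeranyl transferase subunit, was at 0.51 ± 0.10 at 6 h and Fntb, a farnesyl transferase subunit, at -0.13 ± 0.20.

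The genes whose profile over the 16 libraries was most like the family's were found by the root-mean-square distance between centred log2 profiles, among 12298 other genes. Tgtp2, an immunity-related GTPase, was nearest at 0.361, followed by Gm12185 at 0.458. Rasgef1c (0.498), Batf2 (0.521), Tnp2 (0.560) and Igtp (0.575) completed the 6. Batf2, an interferon-induced transcription factor, was at 0.613 CPM unstimulated and 594.8 CPM stimulated at 6 h. Rasgef1c and Tnp2 were at 2.16 and 2.43 CPM with stimulus at 6 h and near 0 without it, so their profiles depend on the 0.5 read added before taking logs. By the same measure Gbp5 (0.453) was the family gene nearest to the median profile and Gbp8 (0.913) the farthest.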

How the data were processed

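The study made 101-base paired reads from non-stranded polyA libraries. Per the labels and the study's methods, the authors used FastQC, STAR, Rsubread, edgeR and limma, and the submitters' processing notes name the build GRCm39 (mm39). The deposited values are log2 CPM of scaled library sizes with 0.5 read added. All values gave whole reads (within 0.05 of a read), which set the depth of 48295939 to 88514341 reads per library.

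Here limma 3.58.1 (R 4.3.3), with a trended variance prior, was run on those values in all 16 libraries (4 groups of stimulus and time, 12306 genes that reached 1 CPM in 4 or more libraries) and in the 8 libraries of 6 h (4 groups of genotype and stimulus, 12111 genes that reached it in 2 or more). Calls needed a 2-fold difference or more and an adjusted p under 0.05 (Benjamini-Hochberg, over all genes tested). The fits were tested on simulated data. No library repeated another. Gene models came from GENCODE vM21, of an older build, and were used for lengths, order and overlap only. All 8 genes, the other family genes and up to 4 genes of each list by mean CPM are named, with Irf1, Irf8, Nlrc5, Casp4, Aim2, Gsdmd, Irgm1, Irgm2, Igtp, Iigp1, Fntb and Pggt1b. Not every gene under this rule is reported here. The genes and lists were chosen with earlier results of these data known. Alternatives were other filters, scalings, variance models, thresholds and sets of libraries.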

Additional observations from a re-analysis of the deposited data

Results flagged for a closer look

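In the unstimulated monocytes at 6 h, library 1 (NFAM1+/+) stood apart for Gbp8, at 0.651 CPM where the other 3 libraries were at 0.297 to 0.319 CPM. On the log2 scale the gap to the nearest library was 0.908 of the range of the 4 libraries, past Dixon's 95% critical value for 4 samples. Of 36 groups of 4 examined, the 8 genes and their sum, this was the only 1 past that value, and chance puts about 1 in 20 groups past it.

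The response to IFN-γ and CD40L differed between 24 h and 6 h for 7 genes by a test of the difference itself, on the log2 scale by -2.35 for Gbp2, -1.68 for Gbp3, -1.92 for Gbp4, -1.59 for Gbp6, -3.45 for Gbp7, -1.47 for Gbp8 and -2.71 for Gbp9. For Gbp8 the difference came with a higher stimulated level at 24 h and a higher unstimulated level as well.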

How the results depend on the processing

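The calls of all 8 genes at 6 h and at 24 h held under every alternative and without any 1 library. Between the times in stimulated libraries, 4 genes were called, but 2 with quantile normalization, 2 with scaling to each library's own total and 7 with no minimum fold change. Without stimulus 4 became 7 with no minimum fold change and 4 to 6 without 1 library, and the response difference 7 to 8. With no minimum fold change 1 gene, Gbp5, was called between the unstimulated genotypes. Scaled to own totals, the summed levels were 57.4, 28080, 97.8 and 13920 CPM (6 h unstimulated and stimulated, then 24 h). At 24 h the unstimulated genotype median was 0.054 by the titles and 0.21 by the tags. The stimulated genotype difference of Gbp2 was 0 with quantile normalization, which is no turn of sign. Signs turned for the stimulated genotype difference of Gbp5 (-0.023) and Gbp9 (-0.0055), both centred on medians. The sign also turned for Gbp5 between unstimulated times. It was at -0.11 without the 4 libraries whose labels disagree, an alternative chosen after seeing the data, and at -0.084 to 0.22 without 1 library. The cause was not tested.

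Leaving out 1 library of 6 h also turned signs. Unstimulated genotype differences ran from -0.26 to 0.17 (Gbp3), -0.69 to 0.37 (Gbp4), -1.08 to 0.60 (Gbp6), -0.32 to 0.77 (Gbp7), -1.03 to 0.10 (Gbp8) and -0.26 to 0.18 (Gbp9). With stimulus they ran from -0.038 to 0.075 (Gbp5), -0.13 to 0.024 (Gbp7) and -0.042 to 0.21 (Gbp8). The difference in response by genotype ran from -0.11 to 0.32 (Gbp3), -0.27 to 0.78 (Gbp4), -0.41 to 1.27 (Gbp6), -0.82 to 0.27 (Gbp7), -0.019 to 1.12 (Gbp8) and -0.14 to 0.30 (Gbp9).

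Over all genes, own-total scaling moved the median at 6 h from -0.13 to -0.86 and the share of calls that were higher from 48.2% to 21.7% (24 h 44.5% to 30.7%, response difference 42.6% to 68.1%, stimulated times 49.3% to 69.7%). Median centring gave 33.8% and 38.7% for the last 2. Calls went from 4028 to 2554 at 24 h and from 2506 to 1443 between unstimulated times at a mean of at least 5 CPM. With no minimum fold change they were 9596, 9143, 8168, 9308 and 7742 in place of 4830, 4028, 3885, 4083 and 2506. Genotype calls went from 8 without stimulus to 3 to 19 across settings and 0 to 25 without 1 library, and from 4 with stimulus to 0 to 5 and 0 to 131.

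No paired analysis was possible because each library has a number of its own. With 2 libraries per genotype, the 95% confidence intervals reached past 2-fold for Gbp6 with and without stimulus, for Gbp8 without it, and for Gbp2, Gbp4, Gbp5, Gbp6, Gbp7 and Gbp8 in the response by genotype, so these data do not exclude a difference of that size there.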
